A study of Homo sapiens with 12 samples.

Results

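The genes described here are 10 components and regulators of epithelial cell contacts: the Kunitz-type protease inhibitors SPINT1 and SPINT2, the tight junction genes CLDN1, CLDN4, F11R and TJP1, and the desmosomal genes DSG2, DSP, JUP and PKP2. They were chosen by name from the 19423 genes measured in each of 2 established human cancer cell lines, A375 (skin melanoma) and 253J (bladder carcinoma), and all 10 had a row in both tables. The choice was made with the difference between bead-positive and bead-negative cells already known: CLDN4 and DSP were picked as lower in A375 positive cells, and SPINT2 and CLDN1 as higher in 253J positive cells. That difference is therefore given for the 10 genes as a description, without a test.

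A375 positive and 253J positive are the cells of each line that had taken up at least 1 bead of 2.4 µm within 24 h. A375 negative and 253J negative are the cells of the same line that had taken up none. Each line was divided with a flow cytometer in this way, and only cells that fell on the same side again were kept, through 5 sorts with 5 generations of culture before each. No other treatment or genotype is labelled, and positive and negative cells of a line come from 1 parental line. Each of the 4 groups had 3 poly(A) RNA-seq libraries, with 14576506 to 17916519 reads per library. The labels do not say whether the 3 libraries of a group came from separate cultures, so p-values measure the spread between these libraries, which may be technical. Levels are normalized read counts, and since the lines were scaled separately, a level in A375 is not tested against a level in 253J. In bulk RNA, fewer cells expressing a gene and less RNA per cell cannot be told apart.

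Tight junctions seal neighbouring epithelial cells near their apical side. Claudins such as CLDN1 and CLDN4 form the seal, the immunoglobulin-type receptor F11R (also called JAM-A) takes part in its assembly, and the scaffold TJP1 (ZO-1) ties these proteins to actin. Desmosomes fasten cells to each other through cadherins such as DSG2, whose tails bind plakoglobin (JUP) and plakophilins such as PKP2, and desmoplakin (DSP) links that plaque to keratin filaments. SPINT1 and SPINT2 are membrane-anchored inhibitors of epithelial serine proteases such as matriptase and of the activator that processes hepatocyte growth factor, the ligand of the receptor MET. Melanoma cells derive from melanocytes, which are not epithelial, whereas urothelial carcinoma cells are.

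Promoter windows are shown for the claudins and the desmosomal gene on which the positive and negative comparison turns, CLDN4 and DSP as the pair that was lower together in A375 positive cells and CLDN1 as the gene picked in 253J. Each is the 250 bases before the RefSeq start of the gene on GRCh38.p14, written 5′ to 3′ on the strand of the gene. Capitals mark 2 motifs searched on both strands: CAGGTG with its reverse complement CACCTG, an E-box form bound by the SNAI and ZEB repressors, and TGANTCA, the form bound by AP-1 factors. DSP is at chr6:7541421-7541670 on the plus strand, CLDN4 at chr7:73830746-73830995 on the plus strand, and CLDN1 at chr3:190322447-190322696 on the minus strand.
DSP: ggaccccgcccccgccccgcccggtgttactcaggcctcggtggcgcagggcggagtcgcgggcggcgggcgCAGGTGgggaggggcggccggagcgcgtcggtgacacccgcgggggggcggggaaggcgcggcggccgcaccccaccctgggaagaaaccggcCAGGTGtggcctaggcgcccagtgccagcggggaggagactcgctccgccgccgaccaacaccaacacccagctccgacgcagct
CLDN4: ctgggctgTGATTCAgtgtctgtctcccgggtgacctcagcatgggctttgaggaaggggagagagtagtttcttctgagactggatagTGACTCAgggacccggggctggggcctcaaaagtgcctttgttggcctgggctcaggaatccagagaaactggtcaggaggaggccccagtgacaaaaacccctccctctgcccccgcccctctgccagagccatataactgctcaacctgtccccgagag
CLDN1: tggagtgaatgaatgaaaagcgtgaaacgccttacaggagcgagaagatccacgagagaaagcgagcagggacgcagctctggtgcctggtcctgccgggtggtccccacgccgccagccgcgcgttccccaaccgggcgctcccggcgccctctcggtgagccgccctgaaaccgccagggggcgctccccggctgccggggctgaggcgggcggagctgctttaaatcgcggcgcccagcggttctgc
The DSP window had a GC content of 78.0% and held CAGGTG 178 and 85 bases before the start. The CLDN4 window had a GC content of 58.8% and held TGANTCA 242 and 161 bases before the start. The CLDN1 window, with a GC content of 68.8%, held neither motif. CAGGTG was present in 17.5% and TGANTCA in 6.57% of 35116 RefSeq windows of the same length. Of the 10 genes, 7 had promoter windows, 12 windows in all, and 5 of these genes held CAGGTG and 1 held TGANTCA in a window (5 and 1 of the 12 windows). The motif GGGCGG, with its reverse complement CCGCCC, bound by SP1-type factors, was found for all 7 of these genes, in 9 of their 12 windows, and in 42.6% of all windows. SPINT2, PKP2 and F11R had no window. A match is a match of letters and says nothing of binding.

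The labelled identities were checked with marker lists. In A375, 5 of the 6 listed melanocyte markers had rows, all 5 reached 10 normalized counts in some library, and their summed level was 10343 to 13868 in positive and 13028 to 25314 in negative libraries. In 253J the same 5 genes summed to 1238 to 1279 in positive and 1217 to 1284 in negative libraries. In 253J the 6 simple epithelial markers summed to 37285 to 39084 in positive and 35295 to 41546 in negative libraries, with KRT8 at 8587 ± 274 in positive and 9384 ± 1249 in negative cells (SD, n = 3 each) and CDH1 at 1978 ± 189 in positive and 2871 ± 198 in negative cells. EPCAM, another simple epithelial marker, was at most 6.1 in any 253J library and at most 1 in any A375 library. The same 6 markers summed to 953.5 to 1032 in A375 positive and 1179 to 1262 in A375 negative libraries, and only KRT8 and KRT18 reached 10. Leukocyte markers summed to at most 43.1 in any library. Of the 7 urothelial markers only PPARG and GATA3 had rows, and in 253J they summed to 328.3 to 366.9 in positive and 350.7 to 410.6 in negative libraries. The uroplakin genes of that list were not analysed here.

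Within each line and group the 10 genes spanned several orders of magnitude. Levels between genes are compared as RPKM (read counts scaled to exon length in kilobases and to library total) and are set side by side between lines without a test. In A375 positive cells the order ran from the cadherin DSG2 (18.0 RPKM) through TJP1 (7.01), CLDN1 (5.61), JUP (2.82), F11R (0.61), DSP (0.287), CLDN4 (0.259), SPINT1 (0.085) and PKP2 (0.018) to SPINT2 (0.0043). The library ranges of TJP1 and CLDN1, of CLDN1 and JUP, of DSP and CLDN4, and of PKP2 and SPINT2 overlapped, so those neighbours do not differ beyond their spread. In A375 negative cells DSG2 was again highest (20.6 RPKM), followed by CLDN1 (7.91), TJP1 (7.35), JUP (1.83), CLDN4 (0.87), DSP (0.68), F11R (0.59), SPINT1 (0.128), PKP2 (0.0061) and SPINT2 (0.0041). There the ranges of CLDN1 and TJP1 overlapped, as did each step in the order from JUP to F11R, and PKP2 and SPINT2.

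In 253J positive cells CLDN1 stood far above the rest at 235 RPKM, followed by DSG2 (18.9), TJP1 (11.01), JUP (10.5), F11R (8.38), SPINT2 (8.27), PKP2 (5.13), CLDN4 (0.80), SPINT1 (0.076) and DSP (0.051). Overlap of neighbours was found for TJP1 and JUP, for F11R and SPINT2, and for SPINT1 and DSP. In 253J negative cells the order was CLDN1 (171 RPKM), DSG2 (15.1), JUP (11.8), TJP1 (11.3), F11R (9.10), PKP2 (4.73), SPINT2 (3.70), CLDN4 (0.83), SPINT1 (0.041) and DSP (0.0082). DSG2 overlapped JUP, JUP overlapped TJP1, and SPINT1 overlapped DSP. SPINT2 and PKP2 were near the limit of detection in A375, and DSP was near it in 253J. The lowest and highest group mean of DSG2 over both lines were 15.1 and 20.6 RPKM, and those of CLDN1 were 5.61 and 235 RPKM.

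**Figure D1:**
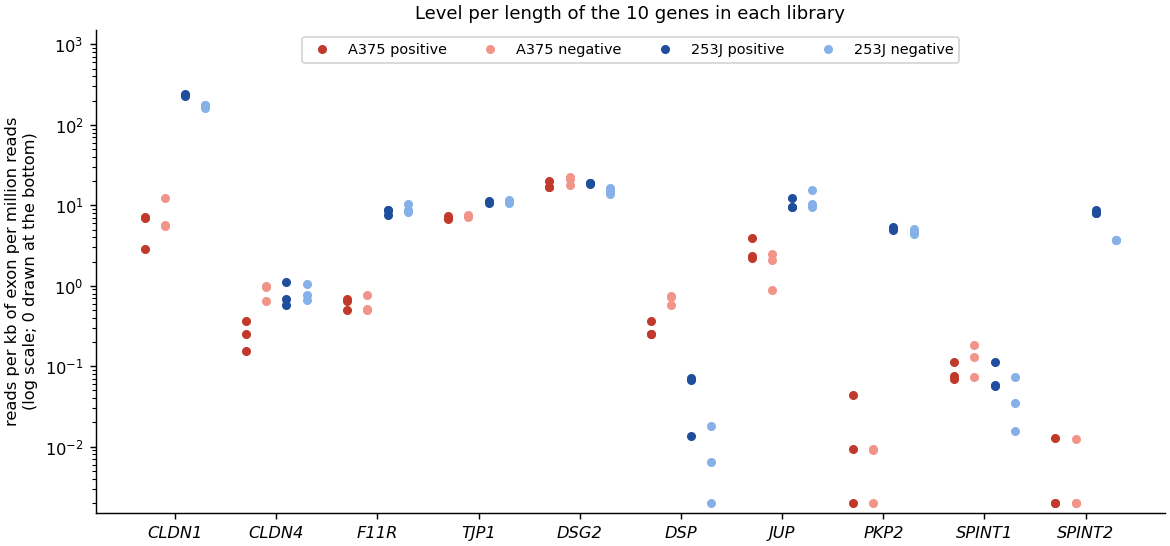
Level of the 10 genes in RPKM (log scale) in each library of A375 and 253J, positive left of negative. CLDN1 is at 235 and 171 RPKM in 253J positive and negative cells, while DSP averages 0.051 and 0.0082 RPKM there. A library with no read is drawn at the bottom.

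Of the inhibitors, SPINT2 had 656.5, 641 and 703.3 normalized counts in 253J positive libraries, against 304.5, 301.6 and 295 in 253J negative libraries. All 3 positive libraries lay above all 3 negative libraries, and the log2 difference, positive minus negative on log2(value + 1), was 1.15 ± 0.07 (SE), a fold of 2.21. In A375, SPINT2 had 1, 0 and 0 reads in positive and 1, 0 and 0 reads in negative libraries, so no difference is given. SPINT1 was low in both lines, with 4.2, 3.8 and 6.1 normalized counts in A375 positive and 4, 9.9 and 7 in A375 negative libraries. In 253J it had 3.2, 3.2 and 6.1 in positive and 1.9, 0.9 and 4 in negative libraries. The groups overlapped in both lines, and SPINT1 was below the mean of 10 required for the fit.

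Among the claudins, CLDN1 had 13574.5, 13786.2 and 12763.6 normalized counts in 253J positive libraries, against 10153.4, 10113.9 and 9132.8 in 253J negative libraries. The groups did not overlap, with a log2 difference of 0.45 ± 0.07, a fold of 1.37. In A375 the same gene had 408, 388.8 and 159.1 normalized counts in positive libraries and 705.2, 323.5 and 309.6 in negative libraries. These overlapped, with a log2 difference of -0.49 ± 0.42. Positive replicate 3 and negative replicates 2 and 3, which carry high sample numbers in the labels, were the 3 lowest A375 libraries for CLDN1. Between libraries of the low numbers the CLDN1 difference in A375 was -0.82, and between those of the high numbers it was -0.99.

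CLDN4 had 18.7, 11.4 and 26.3 normalized counts in A375 positive libraries, against 46.9, 70.2 and 71.7 in A375 negative libraries. Every positive library was below every negative one, with a log2 difference of -1.74 ± 0.32, 3.34-fold lower in positive cells. In 253J it had 42.8, 50.6 and 81.2 in positive and 49.1, 57.1 and 76.3 in negative libraries. The 253J groups overlapped throughout (log2 difference -0.09 ± 0.26), and replicate 3 was the highest library of either group.

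The other tight junction genes lay close together in positive and negative cells. The receptor F11R had 39.4, 50.1 and 53.7 normalized counts in A375 positive and 39.9, 38.6 and 58.7 in A375 negative libraries. It had 698.2, 603 and 675.9 in 253J positive and 702.4, 652.3 and 803.7 in 253J negative libraries. Both pairs of groups overlapped, with log2 differences of 0.07 ± 0.21 in A375 and -0.12 ± 0.09 in 253J. The scaffold TJP1 had 1218.8, 1183.4 and 1257.6 in A375 positive and 1281.7, 1245.3 and 1290 in A375 negative libraries, and 1927.9, 1975.6 and 1870.3 in 253J positive and 2018.5, 2059 and 1875.3 in 253J negative libraries. Its log2 differences were -0.06 ± 0.05 and -0.04 ± 0.06, and the groups overlapped in both lines.

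**Figure D2:**
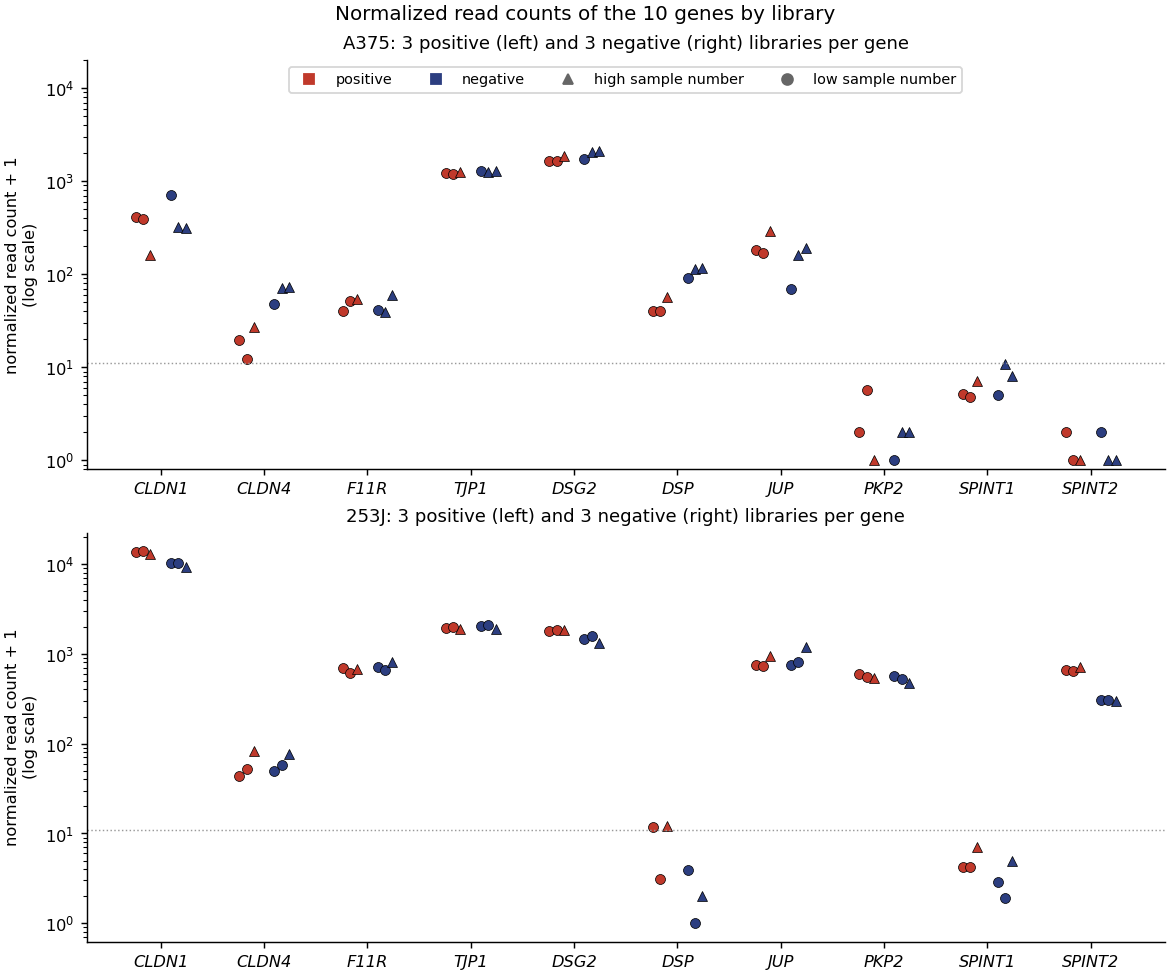
Normalized read counts of the 10 genes in each library, positive left of negative in each line, with the sample-number set shown by the marker and a dotted line at a value of 10. CLDN4 and DSP are lower in all 3 A375 positive libraries than in any A375 negative library, and SPINT2, CLDN1 and DSG2 are higher in all 3 253J positive libraries than in any 253J negative library.

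Of the desmosomal genes, DSP had 39.4, 38.8 and 55.7 normalized counts in A375 positive libraries, against 89.8, 112.8 and 115.5 in A375 negative libraries. The groups did not overlap, with a log2 difference of -1.24 ± 0.19, 2.36-fold lower in positive cells. In 253J, DSP had 10, 2 and 11 reads in positive and 3, 0 and 1 reads in negative libraries. The 253J counts overlapped and were too low for the fit, so no fold is given.

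The cadherin DSG2 had 1794.3, 1815.4 and 1821.6 normalized counts in 253J positive libraries, against 1465.5, 1588.6 and 1323.5 in 253J negative libraries. It was higher in all 3 positive libraries, with a log2 difference of 0.32 ± 0.07. In A375 it had 1637.2, 1634.7 and 1879.9 in positive and 1725.5, 2043.6 and 2112.2 in negative libraries, which overlapped (log2 difference -0.19 ± 0.09). DSG2 lies at chr18:31498043-31549008 on the plus strand of GRCh38 (GENCODE release 29). Within 5 Mb on either side, all 21 protein-coding genes that entered the A375 fit had a log2 difference below 0, with a median of -0.35, and the median of chromosome 18 was -0.22. In 253J the median over 26 neighbours was 0.01. Whether the position of DSG2 bears on its values was not tested. For CLDN4, DSP, SPINT2 and CLDN1 the neighbours in the line of interest had medians between -0.04 and 0.08. Neighbours above and below 0 were 20 and 23 for CLDN4 and 13 and 26 for DSP in A375. They were 77 and 78 for SPINT2 and 23 and 8 for CLDN1 in 253J. For F11R in A375 they were 62 and 21, with a median of 0.09 and a chromosome 1 median of 0.16. Whether position bears on these genes was not tested either.

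The plaque protein JUP had 182.7, 169.3 and 292.9 normalized counts in A375 positive libraries, against 67.8, 159.3 and 189.1 in A375 negative libraries. The groups overlapped through positive replicates 1 and 2 and negative replicate 3, and the log2 difference was 0.71 ± 0.38. It was 1.36 between libraries of low sample numbers and 0.75 between those of high ones, and without negative replicate 1 it was 0.26. In 253J, JUP had 738.9, 724.3 and 942.8 in positive and 743.8, 800 and 1181 in negative libraries, which also overlapped (-0.16 ± 0.17). PKP2 had 589.2, 551.4 and 540.9 in 253J positive and 566.5, 522.2 and 474.6 in 253J negative libraries, with overlap and a log2 difference of 0.11 ± 0.08. In A375 it had 1, 5 and 0 reads in positive and 0, 1 and 1 reads in negative libraries.

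A mean of at least 10 in the line was reached by 7 of the 10 genes in A375 and by 8 in 253J. PKP2, SPINT1 and SPINT2 did not reach it in A375, nor DSP and SPINT1 in 253J. The whole-table limma fit called 2 of the 7 in A375, CLDN4 and DSP, both lower in positive cells, where it called 10.2% of 14118 genes, 4.99% as higher and 5.26% as lower. In 253J it called 2 of the 8, SPINT2 and CLDN1, both higher, where it called 1.09% of 14189 genes, 0.529% as higher and 0.564% as lower. Groups that did not overlap were found for 2 genes in A375, both lower, and for 3 in 253J, all higher, beside 29.5% of all A375 genes (14.4% higher and 15% lower) and 20.2% of all 253J genes (10.4% higher and 9.83% lower). The median log2 difference of the tested genes was -0.19 in A375 and 0.03 in 253J, against 0 over all A375 genes and 0.001 over all 253J genes. Since the choice of genes rests on these differences, nothing is read from the counts or medians.

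**Figure D3:**
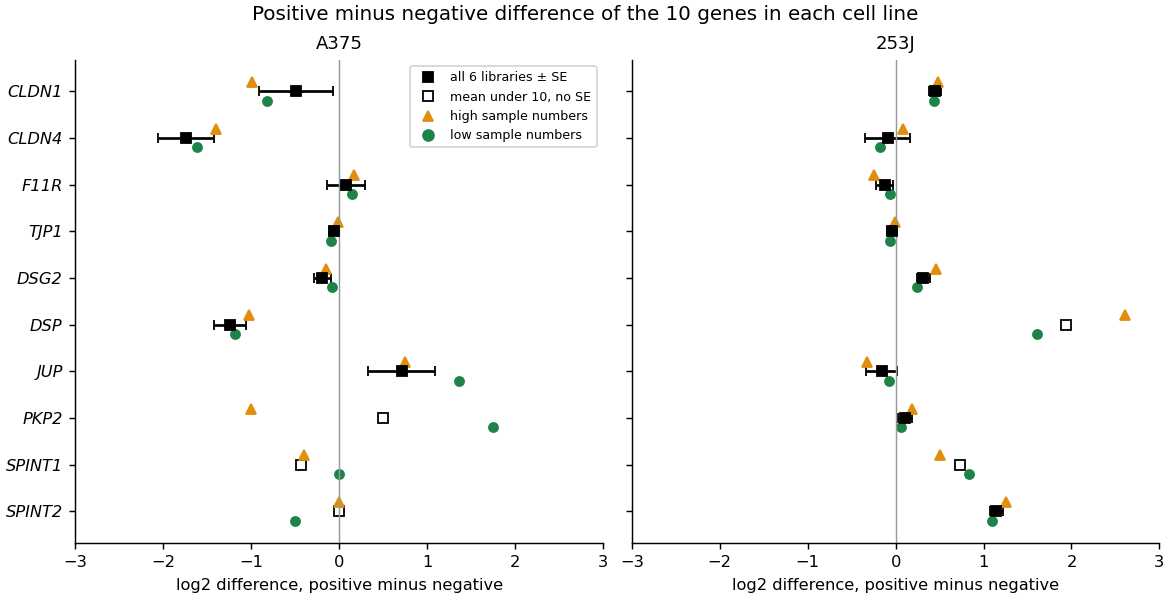
Log2 difference, positive minus negative on log2(value + 1), of the 10 genes in each line, with SE, and the differences within the low and the high sample-number set. In A375, CLDN4 (-1.74) and DSP (-1.24) lie furthest below 0, and in 253J, SPINT2 (1.15) lies furthest above 0 among the genes that entered the fit.

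Over the 6 libraries of a line, some of the 10 genes followed each other. These correlations are descriptions, since their points share the positive and negative groups and the sample-number sets. In A375, CLDN4 and DSP had a Pearson r of 0.98, and CLDN1 and JUP of -0.925. In 253J, SPINT2 and CLDN1 had an r of 0.958, CLDN1 and DSG2 of 0.948, and SPINT2 and DSG2 of 0.906. Among A375 genes with a mean of at least 50 (11348 for CLDN4 and 11347, without itself, for DSP), the profile of CLDN4 was most like those of FOXK2 (r = 0.9981), COQ7 (0.9976) and FAM208A (0.9953), and that of DSP most like those of NEDD4L (0.9981), GANAB (0.9979) and UVRAG (0.9976). Among 11398 other such genes in 253J, SPINT2 was closest to the basement membrane collagen genes COL4A1 (0.9981) and COL4A2 (0.9972) and to FGFBP1 (0.9979). CLDN1 was closest to PAPPA (0.9957), USP6NL (0.9957) and RP5-1021I20.2 (0.9954). These genes were picked as the highest r of all genes compared, over 6 libraries, so nothing is read from how high r is. An r also leaves out the size of a difference. FOXK2 averaged 1428.5 in A375 positive and 1591.7 in A375 negative cells, and COL4A1 695.5 in 253J positive and 225.9 in 253J negative cells.

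A further grouping of the libraries played no part in the choice of genes. The labels number the samples, and the numbers fall into a low set (at most 12) and a high set (at least 19), whose meaning is not given. Positive replicate 3 and negative replicates 2 and 3 are high in A375, and replicate 3 of either group is high in 253J. The high and low sets were compared with the positive and negative groups as a term in the limma fit, adjusted over all genes of the line. This called 36.8% of all genes in A375, 18.4% higher and 18.4% lower, and 32.6% in 253J, 14.4% higher and 18.2% lower. Of the 10 genes, 5 of 7 tested passed in A375, 4 higher and 1 lower in the high set. In 253J, 3 of 8 tested passed, 2 higher and 1 lower. Between libraries of a group, chi-square over its degrees of freedom was 1.25 to 1.63 within a set and 7.17 to 17.1 across sets. With group and set both fitted, the p-values rest largely on libraries of the same group and set, whose spread may be technical. The same holds for fits below with the set as a block or within a single set.

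CLDN1 had the largest such difference of the 10 genes in A375, at 159.1, 323.5 and 309.6 normalized counts in the high set and 408, 388.8 and 705.2 in the low set. The log2 difference, high minus low, was -1.24 ± 0.07 (limma adjusted p = 9.19e-15), -1.32 among positive and -1.15 among negative libraries. In 253J, CLDN1 was lower in the high set by a far smaller log2 difference (-0.13 ± 0.04, adjusted p = 0.00878), and this call was lost without negative replicate 2 (adjusted p = 0.0528). JUP ran the other way in both lines and was higher in the high set, with 1.04 ± 0.12 in A375 (limma adjusted p = 2.85e-08) and 0.49 ± 0.06 in 253J (adjusted p = 3.4e-06). Without a term for positive and negative cells, CLDN1 (adjusted p = 0.108) and JUP (0.305) no longer passed in A375, and CLDN1 (0.649) no longer passed in 253J.

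CLDN4 was higher in the high set in both lines, by 0.70 ± 0.23 in A375 (limma adjusted p = 0.016) and 0.65 ± 0.17 in 253J (adjusted p = 0.00452). In A375, leaving out positive replicate 2, positive replicate 3 or negative replicate 1 ended the call (adjusted p of 0.0512, 0.168 and 0.063), and in 253J leaving out positive replicate 3 did (0.0903). DSP was higher in the high set in A375 by 0.42 ± 0.16 (limma adjusted p = 0.0319), and DSG2 by 0.23 ± 0.04 (adjusted p = 1.24e-05). For DSP, leaving out positive replicate 2 (0.0508) or 3 (0.263), or any negative replicate (0.102, 0.0577 and 0.0648 for replicates 1, 2 and 3), ended the call, whereas DSG2 passed whichever of the 6 libraries was left out. Without a term for positive and negative cells, CLDN4 (0.218) and DSP (0.248) did not pass in A375.

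SPINT2 in 253J showed a log2 difference of 0.04 ± 0.07 between the sets (limma adjusted p = 0.689). TJP1 and F11R did not pass in A375 (0.03 ± 0.04 and 0.26 ± 0.20, limma adjusted p = 0.695 and 0.337). DSG2, PKP2, TJP1 and F11R did not pass in 253J, with log2 differences between -0.14 and 0.15 and adjusted p between 0.0792 and 0.159. Without positive replicate 3 of 253J, DSG2 did pass at -0.21 (adjusted p = 4.64e-04), and so did PKP2, TJP1 and F11R.

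**Figure D4:**
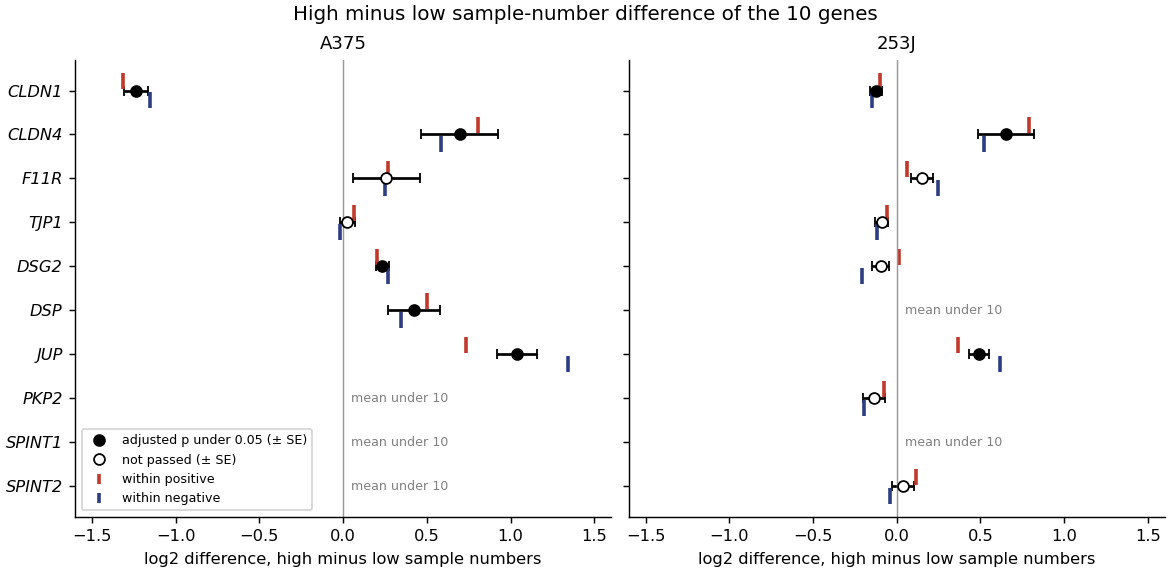
Log2 difference, high minus low sample numbers, of the 10 genes in each line, with SE, and the same difference among positive and among negative libraries. CLDN1 in A375 lies at -1.24, and JUP is above 0 in both lines, at 1.04 in A375 and 0.49 in 253J.

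Other genes of the same structures and pathways were taken from lists that leave out the 10 genes. The lists were chosen with earlier results of these data known, so their counts and p-values are not independent of that choice. The lists held 147 genes, of which 107 had rows. In A375, 66 entered the limma fit and 13 passed, 4 higher and 9 lower in positive cells, beside 10.2% of all genes. In 253J, 80 entered and 2 passed, 1 higher and 1 lower, beside 1.09% of all genes. The median log2 difference over the lists was 0.01 in A375 and 0.03 in 253J. In 253J, libraries with the same replicate number deviated together, as did those of the same sample-number set, and with the replicate number as a block 23 of the 80 passed, 11 higher and 12 lower, beside 1991 of all 14189 genes. With libraries of the same group and number set averaged to a single value, no listed gene passed limma's test in either line. At an unadjusted limma p under 0.05 there were 17 listed genes in A375 and 9 in 253J. Over all genes there were then 1882 of 14118 in A375 and 784 of 14189 in 253J. On the recovered reads of all libraries, edgeR called 13 listed genes in A375 and 3 in 253J, beside 1461 and 163 over all genes. DESeq2 called 14 and 4, beside 1463 and 296 over all genes.

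From the lists nearest to the 10 genes a few genes passed, beside 10.2% of all genes in A375 and 1.09% in 253J. At an unadjusted limma p under 0.05 there were 7 tight junction and polarity genes in A375 and 7 in 253J. Over all genes there were 3471 of 14118 in A375 and 1929 of 14189 in 253J. Of 18 tight junction and polarity genes tested in A375, 1 passed: MAGI3, a scaffold of the junction, averaged 76.3 ± 5.6 in positive cells, against 49.7 ± 6.5 in negative cells (log2 difference 0.61 ± 0.15, limma adjusted p = 0.0428). Of 24 such genes in 253J, 1 passed: CXADR, the coxsackievirus and adenovirus receptor of tight junctions, averaged 1281 ± 88 in positive cells, against 898 ± 31 in negative cells (0.51 ± 0.07, limma adjusted p = 0.0132). Of the other desmosomal genes, PERP and PPL were tested in A375 (adjusted p = 0.534 and 0.357), and DSC2, PKP3, PPL and PERP in 253J, where PERP had the smallest adjusted p (0.206). None of these passed limma, edgeR or DESeq2, and at an unadjusted p under 0.05 there were 0 in A375 and 2 in 253J.

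Adherens junctions hold cadherins linked to actin through catenins. Of their genes, 4 of 11 tested in A375 and 5 of 12 in 253J had an unadjusted limma p under 0.05. Of 11 such genes tested in A375, the scaffold AFDN was higher (514 ± 64 in positive cells, against 377 ± 32 in negative cells, log2 difference 0.44 ± 0.11, limma adjusted p = 0.0399). The catenin CTNND1 was lower (3544 ± 75 in positive cells, against 4311 ± 183 in negative cells, -0.28 ± 0.05, adjusted p = 0.0138). Of 12 in 253J, only the epithelial cadherin CDH1 passed limma, and it was lower in positive cells (-0.54 ± 0.08, limma adjusted p = 0.0194). Each of edgeR and DESeq2 called 2 of these genes in 253J. There AFDN averaged 1639 ± 76 in positive cells, against 1303 ± 61 in negative cells (0.33 ± 0.06, limma adjusted p = 0.0518). The AFDN difference did not differ between lines in a limma fit of all 12 libraries (0.11, adjusted p = 0.694). CDH1 had 1837, 1905 and 2193 normalized counts in 253J positive and 2758, 2755 and 3100 in 253J negative libraries, without overlap, and at most 3.1 in any A375 library. The calls of CDH1 and CXADR each ended when replicate 1 or 2 of either group was left out. For CDH1 the limma adjusted p was then 0.126 and 0.149 without positive replicates 1 and 2, and 0.0591 and 0.0726 without negative replicates 1 and 2. For CXADR it was 0.0846 and 0.0802 without the positive ones, and 0.0535 and 0.0544 without the negative ones. Of the hemidesmosomal genes, which anchor cells to the basement membrane, 6 were tested in A375 and 8 in 253J, and none passed limma, edgeR or DESeq2, with 1 in A375 and 2 in 253J at an unadjusted p under 0.05.

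In the list of SPINT-inhibited proteases and the HGF axis, 2 of 4 genes tested in A375 passed, with opposite differences, beside 10.2% of all genes. In A375, SPINT2 had at most 1 read and SPINT1 at most 10 reads in any library. Whether the inhibitors bear on these genes was not tested. HGF, hepatocyte growth factor, had 12.5, 18 and 29.4 normalized counts in A375 positive libraries, against 83.8, 134.5 and 135.4 in A375 negative libraries. It was lower in every positive library (log2 difference -2.55 ± 0.32, limma adjusted p = 0.00377, 5.86-fold lower). MET, its receptor, averaged 1079 ± 18 in A375 positive cells, against 730 ± 46 in A375 negative cells (SD, n = 3 each), with a log2 difference of 0.56 ± 0.06 (limma adjusted p = 0.00243, a fold of 1.48). In 253J, MET averaged 7845 ± 168 in positive cells, against 7340 ± 279 in negative cells, and did not pass (0.10 ± 0.06, adjusted p = 0.494; 0.0475 with sample-number set blocked and 0.0165 within the low set), and HGF was at most 1.1 in any library. The difference between lines was tested in a limma fit of all 12 libraries, where 6.16% of 12509 genes passed, 3.18% higher and 2.97% lower in A375, and 5 of 55 listed genes passed, 2 higher and 3 lower. The MET difference was larger in A375 than in 253J by 0.47 (limma adjusted p = 0.00352). The HGF and MET calls were kept whichever A375 library was left out. The limma adjusted p was then 0.00141 to 0.026 for HGF and 0.00279 to 0.0206 for MET. Both calls were lost with libraries of the same group and number set averaged (limma adjusted p = 0.108 for HGF and 0.0938 for MET). Of 6 genes of this list tested in 253J, 0 passed limma, edgeR or DESeq2 over all libraries, with 1 at an unadjusted p under 0.05. The protease gene PRSS8 averaged 10.2 ± 4.5 in 253J positive cells, against 28.4 ± 7.5 in 253J negative cells, and did not pass (-1.44 ± 0.35, limma adjusted p = 0.105). The matriptase gene ST14 was not analysed here.

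Among other proteins with Kunitz domains, TFPI, the inhibitor of the tissue factor pathway, had 48.8, 41.6 and 56.8 normalized counts in A375 positive libraries, against 10, 19.8 and 13.9 in A375 negative libraries (1.72 ± 0.27, limma adjusted p = 0.00814). It averaged 2302 ± 295 in 253J positive cells, against 2257 ± 395 in 253J negative cells (0.03 ± 0.13, adjusted p = 0.936), and the difference was larger in A375 by 1.69 (limma adjusted p = 0.00419). TFPI falls below the mean of 50 set for naming genes and was chosen after its values were seen. APLP2, a homologue of the amyloid precursor protein, was lower in A375 positive cells (6803 ± 475, against 8712 ± 454 in A375 negative cells, log2 difference -0.36 ± 0.07, limma adjusted p = 0.0151). No gene of this list passed limma, edgeR or DESeq2 in 253J, with 0 of 6 at an unadjusted p under 0.05.

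Among regulators of epithelial genes, the repressor ZEB1 averaged 626 ± 108 in A375 positive cells, against 892 ± 63 in A375 negative cells (log2 difference -0.52 ± 0.12, limma adjusted p = 0.0328). The repressor SNAI2 averaged 801 ± 131 in A375 positive cells, against 562 ± 78 in A375 negative cells, and did not pass (0.51 ± 0.14, limma adjusted p = 0.0593). SNAI2 did pass in DESeq2 (adjusted p = 0.0106), with sample-number set blocked (0.63, limma adjusted p = 7.85e-11) and within the low (0.62, 3.93e-05) and the high set (0.65, 0.00135). In 253J, ZEB1 averaged 618 ± 17 in positive cells, against 607 ± 64 in negative cells (0.03 ± 0.09, adjusted p = 0.913) and SNAI2 was at most 3.9 in any library. KLF4, a transcription factor of epithelial differentiation, was lower in A375 positive cells (189 ± 25, against 274 ± 18 in A375 negative cells, -0.54 ± 0.12, limma adjusted p = 0.0275). The epithelial splicing factor ESRP1 averaged 347 ± 45 in A375 positive cells, against 326 ± 34 in A375 negative cells (0.09 ± 0.12, adjusted p = 0.716), and was at most 2 in any 253J library. GRHL2 was not analysed here.

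Marker genes of cell identity also differed in A375, beside the lower CLDN4 and DSP. The keratin KRT18 averaged 884 ± 58 in positive cells, against 1077 ± 57 in negative cells (-0.28 ± 0.07, limma adjusted p = 0.0417), and its partner KRT8 averaged 93.6 ± 19.4 in positive cells, against 133 ± 17 in negative cells, and did not pass (-0.52 ± 0.18, adjusted p = 0.116). KRT8 did pass with sample-number set blocked (-0.39, limma adjusted p = 0.0186) and without positive replicate 3 (-0.66, 0.0397). PPARG, a nuclear receptor listed as urothelial, averaged 62.3 ± 7.1 in positive cells, against 141 ± 4 in negative cells (-1.18 ± 0.13, limma adjusted p = 0.00182). GATA3, the other urothelial marker with a row, averaged 22.1 ± 10.6 in positive cells, against 12.6 ± 5.0 in negative cells, and did not pass (0.73 ± 0.43, adjusted p = 0.349). Of 5 melanocyte genes tested, the melanin enzymes TYR and DCT were lower: TYR averaged 8.93 ± 2.22 in positive cells, against 70.2 ± 21.9 in negative cells (-2.82 ± 0.29, limma adjusted p = 0.0015), and DCT averaged 4828 ± 1227 in positive cells, against 12394 ± 4541 in negative cells (-1.31 ± 0.30, adjusted p = 0.0312). MLANA (72.0 ± 7.2 in positive cells, against 67.2 ± 26.1 in negative cells) and PMEL (2805 ± 294 in positive cells, against 3803 ± 1165 in negative cells), both melanosome proteins, did not pass (adjusted p = 0.76 and 0.325). PMEL passed in opposite directions within the sets, at 0.26 in the low set (limma adjusted p = 0.00287) and -0.84 in the high set (4.67e-05). It also passed with the set as a block (-0.29, 0.038) and without negative replicate 1 (-0.68, 0.00319), and MLANA passed within the low set (0.68, 0.0468). MITF, the other melanocyte gene tested, averaged 4133 ± 813 in positive cells, against 4695 ± 1190 in negative cells. It did not pass (-0.17 ± 0.20, limma adjusted p = 0.677). TYR and MITF were chosen after their values were seen. Summed leukocyte markers were at 4 to 31.5 in A375 positive and 7 to 25.7 in A375 negative libraries, and stromal and endothelial markers at 66.5 to 76 in positive and 77.2 to 97.6 in negative libraries. Their part in the CLDN4 and DSP values was not tested.

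The calls of PPARG, TYR and TFPI were kept whichever A375 library was left out (limma adjusted p of 0.00189 to 0.0168, 9.7e-04 to 0.0128 and 0.00878 to 0.0433). All 3 were lost with libraries of the same group and number set averaged (limma adjusted p = 0.0805, 0.0653 and 0.106). The other A375 calls were lost without some libraries. Without positive replicate 1 the limma adjusted p was 0.162 for MAGI3, 0.104 for AFDN, 0.0601 for KRT18, 0.0733 for APLP2, 0.119 for DCT, 0.121 for ZEB1 and 0.0645 for CTNND1. Without positive replicate 2 it was 0.111 for MAGI3, 0.0764 for AFDN, 0.163 for KRT18, 0.0812 for APLP2, 0.124 for DCT, 0.136 for ZEB1, 0.0594 for CTNND1 and 0.0977 for KLF4. Without positive replicate 3, MAGI3 (0.0677), AFDN (0.0545) and KRT18 (0.0687) were lost, and without negative replicate 1, AFDN (0.0598) and KRT18 (0.0662). Without negative replicate 2, MAGI3 (0.144), AFDN (0.0834), KRT18 (0.124), APLP2 (0.077), DCT (0.115), KLF4 (0.112), ZEB1 (0.127) and CTNND1 (0.06) were lost. Without negative replicate 3, MAGI3 (0.113), AFDN (0.12), KRT18 (0.0953), APLP2 (0.0713), DCT (0.12), KLF4 (0.109) and ZEB1 (0.113) were lost. MAGI3 was also lost in DESeq2 (adjusted p = 0.0878) and without a filter on low values (limma adjusted p = 0.0594).

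**Figure D5:**
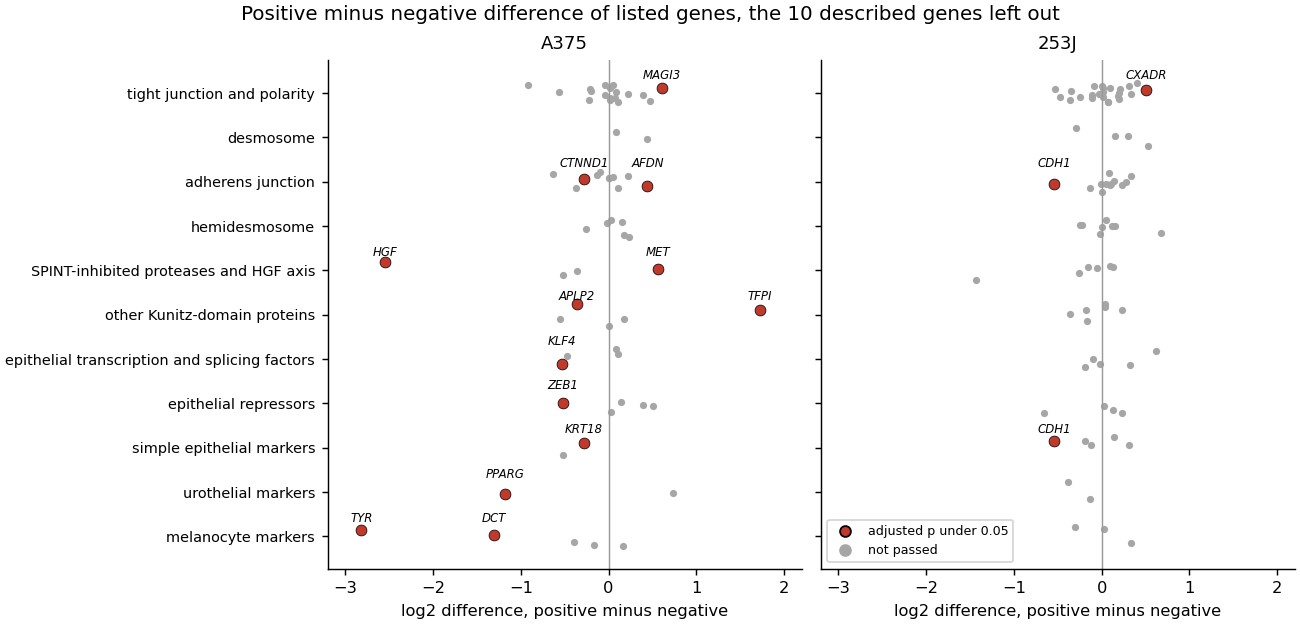
Log2 difference, positive minus negative, of the listed genes that entered the limma fit in each line, by list, with genes that passed drawn larger, in red and named. In A375, HGF (-2.55) and TYR (-2.82) lie furthest below 0 and TFPI (1.72) furthest above 0 among the plotted genes that passed. The leukocyte and the stromal and endothelial lists are not drawn.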

How the data were processed

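Poly(A) RNA-seq libraries, 3 per group, were analysed from 2 tables, 1 per cell line. The deposited signal is the count of each gene over a library-specific size factor, rounded by the authors to 0.1. Per the submitters' processing notes, cutadapt, STAR 2.4.2a, HTSeq, DESeq2 and GRCh38 were used. Trimming, annotation release and counting strand are not given in the sources used here. Without strand, reads of SPINT1, SPINT2, DSG2, PKP2, TJP1 and genes that overlap them on the opposite strand cannot be told apart. SPINT2, PKP2, TJP1 and F11R also overlap genes on their own strand, of which AL591806.3 with F11R has a row (mean 0 in A375 and 2.5 in 253J).

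Whole reads were recovered from the step between low values (whole within 0.055 for at least 99.98% of values) and gave the totals and the edgeR 4.0.16 and DESeq2 1.42.0 alternatives. The deposited values turned out to be normalized, so limma-trend in limma 3.58.1 under R 4.3.3, planned for that case, was fitted to log2(value + 1) of genes averaging 10 or more in the line, adjusted by Benjamini-Hochberg over each whole table at 0.05. Log2 differences on this scale understate changes of low genes. The steps were tested on simulated data. For the positive and negative comparison these data held no difference between sample-number sets, so they do not show how the fits behave with one. RPKM used GENCODE 29 exon lengths (99.6% of identifiers matched). The RPKM, like all levels, was not tested between lines. Promoters came from RefSeq on GRCh38.p14.

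Members and lists were chosen with earlier results of these data known. Named genes were all 10 members, the 2 called genes with the smallest p per list and line among those with a mean of at least 50, fixed line markers and regulators, and the 3 profiles most alike to CLDN4, DSP, SPINT2 and CLDN1. TFPI, TYR, PARD3, PRKCI, GATA3, PERP, PPL, DSC2, PKP3, PRSS8 and MITF were named after their values were seen. Whether replicate numbers pair libraries was checked by correlating deviations from group means: same-numbered pairs had r of 0.286, 0.187 and 0.496 in 253J, all over 0.1, and 0.415, -0.272 and 0.397 in A375. Replicate 3 carries a high sample number in both 253J groups, so in 253J the replicate number and the number set overlap: differently numbered low-set pairs had r of 0.21 and 0.165. Chi-square over its degrees of freedom, between libraries of a group, was 1.25 to 1.63 within a number set and 7.17 to 17.1 across sets. Alternatives were another normalization, pseudocount or filter, blocks, each number set alone, leaving out each library, and averaging same-set libraries, added after seeing the data.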

Additional observations from a re-analysis of the deposited data

Results flagged for a closer look

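For 5 listed genes the positive minus negative difference itself differed between the lines in the limma fit of all 12 libraries, given here as A375 minus 253J with adjusted p over 12509 genes. TFPI differed by 1.69 (adjusted p = 0.00419) and MET by 0.47 (0.00352). PPARG differed by -1.04 (adjusted p = 0.00166), and these 3 calls held under each of the 16 alternatives run. Those were other pseudocounts, blocks and leaving out each library. Averaging same-set libraries, edgeR, DESeq2 and other filters were not run for this difference. PRKCI, an atypical protein kinase C of cell polarity, differed by -0.41 (adjusted p = 0.0213), with 454 ± 36 in A375 positive and 527 ± 15 in A375 negative cells, and 1759 ± 78 in 253J positive and 1538 ± 51 in 253J negative cells. PARD3, a polarity scaffold, differed by -0.27 (adjusted p = 0.047), with 622 ± 31 in A375 positive and 716 ± 15 in A375 negative cells, and 3766 ± 71 in 253J positive and 3583 ± 106 in 253J negative cells. Within a line, neither PRKCI (adjusted p = 0.126 in A375 and 0.196 in 253J) nor PARD3 (0.0916 and 0.604) passed in the fit without a block. With the replicate number as a block PRKCI passed in 253J (0.19, adjusted p = 0.00946). With sample-number set blocked PRKCI passed in A375 (-0.18, 0.0237) and 253J (0.19, 0.00368), and PARD3 in A375 (-0.18, 0.00891). PRKCI also passed within the low set in A375 (-0.27, 0.0316) and 253J (0.18, 4.01e-04), and in A375 without positive replicate 3 (-0.28, 0.0415).

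The PRKCI call was lost without A375 positive replicate 1 (adjusted p = 0.0599) or 2 (0.0617), A375 negative replicate 3 (0.0592), 253J positive replicate 2 (0.0652) or 253J negative replicate 1 (0.0541). The PARD3 call was lost without A375 positive replicate 1 (0.064) or 2 (0.117), A375 negative replicate 2 (0.112) or 3 (0.101), any of the 253J positive replicates (0.0982, 0.0942 and 0.0894), or 253J negative replicate 1 (0.0839) or 2 (0.113).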

How the results depend on the processing

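The counts of called genes moved with the sample-number set, with the replicate block, with averaging and with single libraries. In A375 the 1447 calls over all genes became 2429 with a replicate block, 4523 with a number set block, 2906 in the low set and 2335 in the high set alone, 53 with same-set libraries averaged, and 487 to 1881 without 1 library. The 13 listed genes became 21, 34, 24 in the low set and 0 with averaging, and 5 to 15 without 1 library. The 2 calls among the 10 genes became 1 at a mean of at least 50 and 5 with a number set block. They became 0 with averaging and 1 to 3 without 1 library. As the 10 genes were chosen on this difference, nothing is read from these counts or from those in 253J. In A375 the replicate numbers did not pair the libraries, and with that block SNAI2 (adjusted p = 0.00715) and KRT8 (0.0249) passed. KRT8 in 253J passed in the low set (-0.21, 1.98e-12) and without negative replicate 3 (-0.23, 0.0338). In 253J the 155 calls became 296 in DESeq2, 1991 with a replicate block, 2645 with a number set block, 2977 in the low set, 21 with averaging, and 40 to 369 without 1 library. The 2 listed genes became 4, 23, 27, 29, 0 and 0 to 6 in the same settings, and the 2 of the 10 genes became 4 with a number set block, 1 with averaging, and 1 to 3 without 1 library. Within a set, A375 has 1 negative library in the low and 1 positive library in the high set, and the fit takes the spread from the other group. The high set alone has 1 library per group in 253J and gives no test. Without a term for positive and negative cells, the calls between number sets were 1670 in A375 and 1427 in 253J, and without 1 library 3048 to 5221 in 253J. The 5 listed genes that differed between lines became 25 with a number set block, 14 with a replicate block, and 3 to 8 without 1 library.

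Signs reversed for differences that do not pass over all 6 libraries, and of the reversed values only PMEL in the low set passed. Log2 differences were -0.01, -0.04 and -0.01 for ESRP1 in A375 with a number set block, in the high set and with averaging. PMEL in A375 was 0.26 and ZEB1 in 253J -0.03 in the low set. Leaving out 1 library turned MLANA in A375 (-0.13 to 0.44), and ZEB1 (-0.05 to 0.1) and TFPI (-0.07 to 0.17) in 253J. It also turned the described positive minus negative differences of CLDN4 (-0.36 to 0.1) and JUP (-0.29 to 0.05) in 253J. That of F11R in A375 (-0.03 to 0.26) turned as well. Between number sets, TJP1 in A375 (-0.02 to 0.07), and SPINT2 (-0.04 to 0.12) and DSG2 (-0.21 to 0.01) in 253J turned. Of the comparisons of single genes not counted as reversed, 893 were counted as unchanged, 93 lost and 28 gained a call, and 2 moved. Those counted as unchanged include the turned values of CLDN4, JUP and F11R, whose positive minus negative differences were described without a test. The cause was not tested. The number of reads limits SPINT1 in both lines, SPINT2 and PKP2 in A375 and DSP in 253J.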
